A study of Drosophila melanogaster with 18 samples.

Results

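X-linked genes were followed through 5 knockdowns of the m6A writer complex in cultured Drosophila cells. The members are all genes annotated on chromosome X whose mean level over the 18 libraries was at least 1 CPM, the unit of counts scaled to library size. Of 2600 annotated X-linked genes, 1288 met this minimum (49.5%), and all 1288 were tested. They comprised 1241 protein-coding genes, 40 noncoding RNA genes, 5 pseudogenes and 2 snoRNA genes. A further 113 X-linked genes were tested but lay below the minimum, and 402 had no count in any library. The same minimum kept 1299 of 3401 genes on 2L, 1413 of 3387 on 3L and 1769 of 4073 on 3R, and these arms serve for comparison. Among genes near the minimum, yin averaged 1.00 CPM and CG14628 1.00 CPM just inside it, and Muc14A averaged 0.999 CPM and sog 0.990 CPM just outside it. Median levels were alike before any comparison of groups, at 44.5 CPM for X members and 45.1 CPM for 2L, 44.1 CPM for 3L and 48.2 CPM for 3R genes.

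The cells were S2R+, an adherent line derived from Drosophila embryos with features of blood cells. Each of 6 groups had 3 libraries of polyadenylated RNA from cells at passages 8 to 10, given 10 µg of double-stranded RNA in each of 3 rounds over 6 days. The Ime4_dMettl14 group was treated against the methyltransferase pair Ime4 and dMettl14, now named Mettl3 and Mettl14. The Fl2d, Vir and Nito groups were treated against fl(2)d, vir and nito (Spenito), and the CG7358 group against the gene now named Flacc. The control group received double-stranded RNA against LacZ, a bacterial gene, so all groups share exposure to double-stranded RNA. No group restored a lowered gene, so effects on other transcripts cannot be told apart from loss of the target. Whether the 3 libraries of a group stem from separate cultures is not stated in the labels, so the p-values cover a spread that may be technical.

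In Drosophila the dosage of X-linked genes is balanced between the sexes by raising transcription from the single male X. The male-specific lethal complex does this with the proteins MSL1, MSL2, MSL3, MLE and the acetyltransferase MOF, and with the noncoding RNAs roX1 and roX2. In females the splicing regulator Sex-lethal (Sxl) blocks production of MSL2. Spenito and the other m6A writer components are known to be needed for female-specific splicing of Sxl.

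Total counts were 15743484 to 18100792 per library, and the common biological coefficient of variation was 0.0432. Each targeted transcript was lowered in its own group, to at most 29.6% of the control mean, with nito at 24.9%. Of blood cell markers, Hml was at 9.33 to 15.3 CPM and Pxn at 140 to 173 CPM over all libraries, whereas NimC1 reached at most 1.097 CPM. The Wingless receptor genes fz and fz2, which mark S2R+ among S2 lines, were at 25.2 to 44.2 CPM and 19.98 to 31.5 CPM. Of genes typical of other cell types, nSyb, Mhc, Act88F, Lsp1alpha and Yp1 stayed at or below 0.79 CPM, while elav reached 35.3 CPM and Mef2 114 CPM. Some markers moved with the Nito group. The neuronal gene brp was at 2.13 to 2.63 CPM in Nito and 0.515 to 0.743 CPM in control, and the germline gene bam at 19.5 to 20.96 CPM in Nito and 13.5 to 15.9 CPM in control. Of blood cell markers, srp was at 156 to 163 CPM in Nito and 239.8 to 254 CPM in control, Sr-CI at 29.2 to 31.3 CPM in Nito and 53.5 to 62.2 CPM in control, and crq at 342 to 356 CPM in Nito and 420.5 to 436 CPM in control. Pxn, Fer1HCH and drpr were also lower in Nito without overlap. The marker ush went the other way, at 522 to 530 CPM in Nito and 477 to 501 CPM in control. So did He (1.48 to 1.82 CPM in Nito, 0.971 to 1.35 CPM in control) and NimC1 (0.398 to 1.097 and 0.115 to 0.343 CPM), both at low levels. The line marker fz was lower without overlap, at 25.2 to 29.4 CPM in Nito and 30.1 to 31.0 CPM in control. Also lower without overlap were fz2 (20.5 to 22.0 CPM in Nito, 30.6 to 31.5 CPM in control) and Mef2 (82.6 to 86.1 and 91.9 to 102 CPM). The Nito libraries also listed 11156, 11161 and 11312 genes with a count, against 10366 to 10847 in the other 15 libraries. The part of these differences in the Nito results was not tested. The male-type dosage compensation genes msl-2 (50.5 to 62.8 CPM) and roX2 (39.9 to 67.6 CPM) were present in every library. In bulk RNA, fewer cells of a type and less RNA per cell cannot be told apart.

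X-linked transcripts took a larger share of the RNA in Nito libraries than in the other 15 libraries. They made up 16.2%, 16.2% and 16.1% of gene counts in the Nito libraries, with a mean of 16.2% ± 0.0723 (SD, n = 3), against 14.8% ± 0.0573 in the control libraries. All 15 other libraries lay between 14.5% and 14.9%, so the Nito libraries stood outside that range. This share needs no scaling between libraries. A single gene, CG15784, held 0.458%, 0.424% and 0.442% of counts in the Nito libraries and 0.0279%, 0.0258% and 0.0249% in the controls. With CG15784 left out the X share was 15.8%, 15.9% and 15.71% in the Nito libraries, and 14.4% to 14.8% in the other 15 libraries.

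The shift was spread over many X members and was small for most of them. In the Nito libraries, 851, 882 and 857 of the 1288 members lay above the control mean. The median log2 difference of X members from the control mean was 0.12, 0.15 and 0.13 in the Nito libraries, and −0.05 to 0.01 in the other 15 libraries. For 2L the Nito values were −0.06, −0.05 and −0.07, for 3L −0.02, −0.02 and −0.02, and for 3R −0.03, −0.03 and −0.04. Each Nito library thus had its X median above 0 and the medians of these 3 arms below 0. The distance between the X median and the median of the 3 arms together was 0.15, 0.18 and 0.17 in the Nito libraries and −0.05 to 0.01 in all others.

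**Figure D1:**
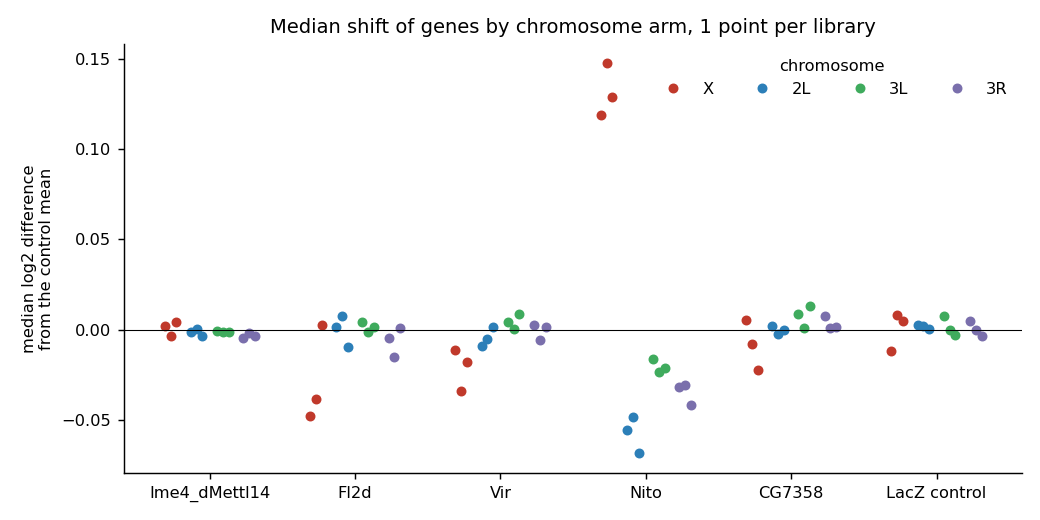
Median log2 difference from the control mean, per library (points), for X members and for genes of 2L, 3L and 3R, with knockdown groups on the horizontal axis and control libraries last. The 3 Nito libraries have X medians of 0.12 to 0.15, while X medians of the other 15 libraries lie between −0.05 and 0.01.

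In edgeR's quasi-likelihood test, 611 X members rose and 249 fell in Nito against control, and 428 were not called at an adjusted p under 0.05. The risen members were 47.4% of the 1288, where 29.8% of all 8146 genes tested rose. The fallen members were 19.3%, where 30.9% of all genes fell. On 2L 282 genes rose and 501 fell, on 3L 389 rose and 472 fell, and on 3R 477 rose and 634 fell. Together 25.6% of genes on the 3 arms rose and 35.9% fell. Without any test, the 3 Nito libraries lay above all 3 controls for 651 X members (50.5%, with 32.3% over all genes tested) and below them for 270 (21.0%, with 33.2% over all genes).

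The X distribution in Nito was displaced at each percentile given here, less so at the low end, and was not lengthened at the upper end alone. The median log2 fold change of X members was 0.14, a 1.10-fold change, with quartiles at −0.08 and 0.32 and the tenth and ninetieth percentiles at −0.32 and 0.55. For genes of the 3 arms the median was −0.04, the quartiles −0.23 and 0.14, and these percentiles −0.45 and 0.35. The 5th percentiles were −0.59 on X and −0.69 on the arms, and the 95th percentiles 0.82 and 0.59. The median X member thus lay at about the upper quartile of the arms. The interquartile ranges were 0.40 on X and 0.37 on the arms. Of X members 67.8% had estimates above 0, compared with 43.7% of genes on the arms.

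Most of the X members that rose in Nito did so by less than 1.5-fold. Among risen members, 45 changed by under 1.1-fold, 261 by 1.1-fold to 1.25-fold, 192 by 1.25-fold to 1.5-fold, 79 by 1.5-fold to 2-fold and 34 by more. The 1.1-fold to 1.25-fold class held 20.3% of all X members and 11.2% of genes on the arms. The 1.25-fold to 1.5-fold class held 14.9% of X members and 5.38% of genes on the arms, and the 1.5-fold to 2-fold class 6.13% and 2.88%. Above 2-fold the shares were 2.64% on X and 2.03% on the arms. Among fallen genes the 1.1-fold to 1.25-fold class held 7.14% of X members and 15.6% of genes on the arms, and falls above 2-fold were 2.25% and 2.45%. The excess of risen members on X over the arms was thus in the classes between 1.1-fold and 2-fold, whereas changes above 2-fold had near shares on X and on the arms.

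**Figure D2:**
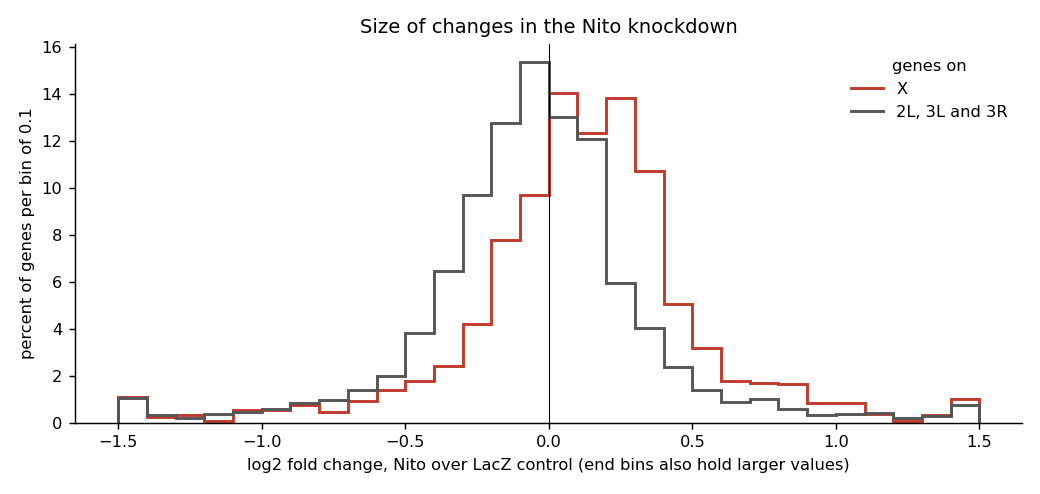
Share of genes (percent) in bins of log2 fold change, Nito against control, for X members and for genes of 2L, 3L and 3R together; the end bins also hold larger values. The X distribution has its median at 0.14 and that of the 3 arms at −0.04, with similar widths.

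In the other knockdowns the shares of risen X members lay near or below those over all genes tested. In Fl2d 181 members rose and 248 fell (14.1% and 19.3%), where 16% of all genes tested rose and 16% fell. In Vir 189 members, 14.7%, rose and 19.9% fell, with 16.7% and 17.3% over all genes. In CG7358 218 rose and 261 fell (16.9% and 20.3%, with 18.8% and 18.8% over all genes). In Ime4_dMettl14 43 rose and 29 fell (3.34% and 2.25%, with 3.01% and 2.63% over all genes). Those counts rest on single libraries: without Ime4_dMettl14 replicate 1 there were 16 risen and 15 fallen, without replicate 2 26 and 10, and without replicate 3 18 fallen. Without control replicate 1 there were 20 risen, and without control replicate 2 27 risen and 12 fallen. The median log2 fold change of X members was −0.03 in Fl2d, −0.02 in Vir, −0.01 in CG7358 and 0.00 in Ime4_dMettl14. With libraries scaled by total counts alone the split was 122 risen and 389 fallen in Fl2d, 129 and 399 in Vir, and 147 and 399 in CG7358. That scaling shifted all genes tested, with medians over all of them of −0.05 in Fl2d, −0.05 in Vir and −0.06 in CG7358. Shares called outside X were not counted with that scaling. The falls it added are thus not to be read as a result about X, here and in the lists below. The knockdown contrasts share the same 3 control libraries.

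A direct contrast of Nito with the mean of the other 4 knockdowns uses no control library. In it 656 X members were higher in Nito and 248 lower (50.9% and 19.3%), where 32.3% of all genes tested were higher and 32.5% lower. On the 3 arms 27.9% were higher and 38.5% lower. The median log2 difference was 0.14 for X members and −0.03 for genes of the arms.

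The displacement of X members in Nito was present at every expression level. Members were grouped by mean CPM over all 18 libraries. Counts called in each class are to be read against 29.8% risen and 30.9% fallen over all genes tested. Of 144 members at 1 to 4 CPM, 61 rose and 17 fell, with a median log2 fold change of 0.30. Of 188 at 4 to 16 CPM, 67 rose and 33 fell, with a median of 0.10. These low classes had the widest spread, with interquartile ranges of 0.90 and 0.48.

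Of 432 members at 16 to 64 CPM, 192 rose and 87 fell, with a median of 0.11. Of 397 at 64 CPM up to 4 times that level, 214 rose and 91 fell, with a median of 0.14. Of the 127 most abundant members, 77 rose and 21 fell, with a median of 0.14 and an interquartile range of 0.27. The share of members called as risen therefore grew with level above 4 CPM, at 35.6%, 44.4%, 53.9% and 60.6%, while the medians of these classes stayed between 0.10 and 0.14. A call depends also on the error, which is smaller at higher counts, and the part of this in the growth was not tested. On the 3 arms the risen shares over the same classes were 20.1%, 20.04%, 30.0% and 35.5%, with no growth between the first pair of classes.

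Genes of the 3 arms also had their highest median in the lowest class. Their medians were 0.13, −0.06, −0.08, −0.03 and 0.02 from the lowest to the highest class. The X median exceeded that of the arms by 0.17, 0.16, 0.19, 0.17 and 0.12 in the same order. In the other 4 knockdowns this difference lay between −0.04 and 0.02 in every class.

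**Figure D3:**
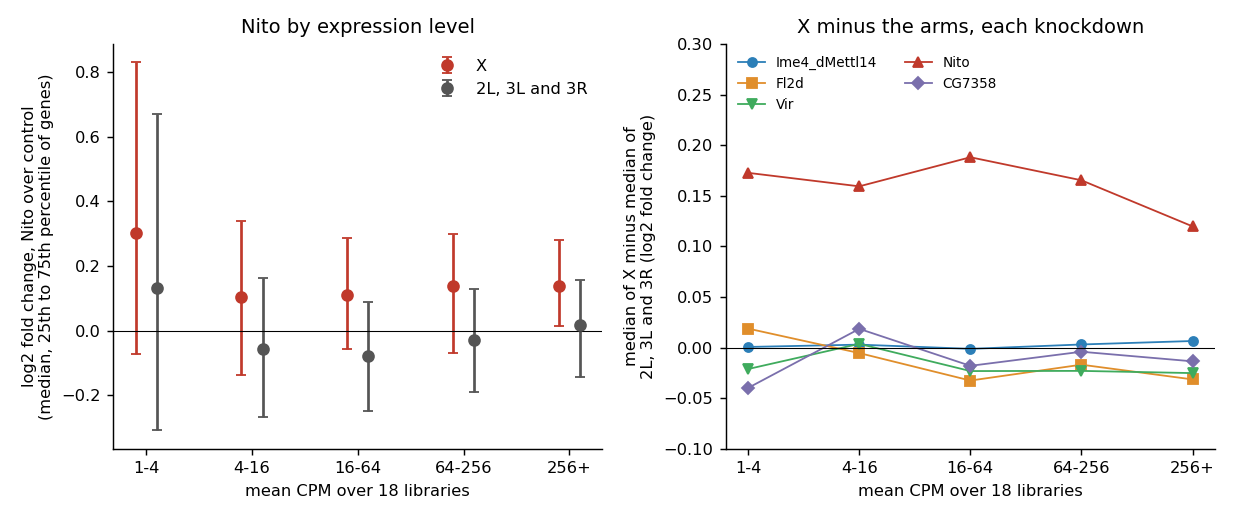
Left, median log2 fold change (points) with the quartiles (bars) in Nito against control by class of mean CPM, for X members and genes of 2L, 3L and 3R together; right, the X median minus the median of the 3 arms in each class for each knockdown. The Nito difference lies between 0.12 and 0.19 in every class and that of the other knockdowns between −0.04 and 0.02.

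Of the members that did not follow the rise, a larger share was short. The 611 risen members had a median exonic length of 2790 bases, the 428 not called 1905.5 bases, and the 249 fallen 2119 bases. Their median levels were 59.6 CPM for risen, 26 CPM for uncalled and 55.0 CPM for fallen members. Among risen members 4.42% were under 1 kb, compared with 18.5% of those not called and 17.7% of those that fell. Genes of the 3 arms had the same order, with 8.54% of risen, 18.02% of uncalled and 16.1% of fallen genes under 1 kb. Their median lengths were 2630.5, 1870 and 1883 bases, and their median levels 62.7, 33.2 and 50.4 CPM, in that order. The smaller share of short genes among risen ones was thus not particular to X. A member without a call was not thereby shown to be unchanged: of the 428, 201 had a 95% interval of the log2 fold change within 0.2 of 0.

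Divided by exonic length, the 150 members under 1 kb had 27 risen and 44 fallen, with a median log2 fold change of −0.05. Of 370 members at 1 to 2 kb, 150 rose and 75 fell (median 0.09). Of 441 at 2 to 4 kb, 241 rose and 69 fell (median 0.17), and of 327 longer ones 193 rose and 61 fell (median 0.23). The median thus was higher in each longer class. Medians on the 3 arms had the same order, at −0.09, −0.07, −0.03 and 0.05. Under 1 kb, 98 of 668 genes on the arms rose and 259 fell. Over all genes tested 29.8% rose and 30.9% fell, and over X members 47.4% and 19.3%.

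The distance between X and the arms was smallest for the shortest genes. Per Nito library it was 0.05, 0.06 and 0.03 under 1 kb, and 0.13, 0.17 and 0.16 at 1 to 2 kb. It was 0.18, 0.22 and 0.20 at 2 to 4 kb, and 0.18, 0.18 and 0.19 for longer genes. Within classes of level the distance under 1 kb was 0.08, 0.06 and 0.05 at 1 to 16, 16 to 64 and at least 64 CPM, the last with 18 X members, and 0.10 to 0.26 in all longer classes. The part of counting or library preparation in this relation with length was not tested.

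**Figure D4:**
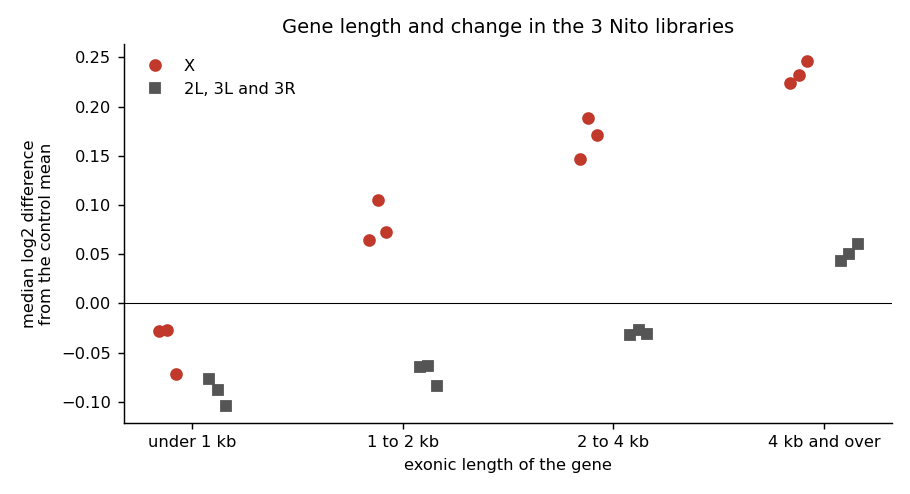
Median log2 difference from the control mean in each of the 3 Nito libraries (points), by class of exonic length, for X members (circles) and for genes of 2L, 3L and 3R together (squares). X points lie 0.03 to 0.06 above those of the arms under 1 kb and 0.13 to 0.22 above them in the longer classes.

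Medians of the members differed less by other properties than by length. Of 125 members without an intron 52 rose and 22 fell (median 0.12), and of 1163 with introns 559 rose and 227 fell (median 0.14). Of 40 noncoding RNA genes on X 14 rose and 7 fell (median 0.24), and the 118 on the arms had 44 risen and 18 fallen (median 0.17). Of 1241 protein-coding members 596 rose and 242 fell (median 0.13), and the 4336 on the arms had 1101 risen and 1587 fallen (median −0.04). The medians of X and the arms thus lay closer for noncoding than for protein-coding genes. Of 817 members whose exons overlap no other gene 408 rose and 156 fell (median 0.14), and of 471 that overlap one 203 rose and 93 fell (median 0.12). On the 3 arms 93 genes without an intron rose and 133 fell, and 445 genes that overlap another rose and 746 fell. All counts of this paragraph are to be read against 29.8% risen and 30.9% fallen over all genes tested. Over the X members these shares were 47.4% and 19.3%. Along the chromosome all 12 windows of 2 Mb had a positive median in Nito. The lowest was 0.09 in the first window with 141 members, and the highest 0.20 between 18 and 20 Mb with 118 members. The share of risen members per window ran from 37.4% to 55.7%.

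The dosage compensation genes that lie on X did not rise in Nito. The noncoding RNA roX2 (lncRNA:roX2, FBgn0019660, X, 11579065 to 11580432, plus strand) had 40.6, 41.01 and 39.9 CPM in Nito, against 67.6, 61.4 and 63.3 CPM in control. All 3 Nito libraries lay below every control library and below every library of the other knockdowns, whose lowest value was 51.2 CPM. The fall was −0.66 ± 0.07 on the log2 scale (SE, adjusted p = 3.78e-07 by edgeR). Against the mean of the other 4 knockdowns the difference was −0.53 ± 0.06 (adjusted p = 4.06e-07). In CG7358 roX2 changed by −0.19 ± 0.07 (adjusted p = 0.0401), a call lost under 6 alternatives with adjusted p of up to 0.124.

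The acetyltransferase gene mof (FBgn0014340, X, 5873840 to 5876853, minus strand) had 37.7, 45.7 and 41.5 CPM in Nito, against 39.9, 40.6 and 39.1 CPM in control. These groups overlapped, and the difference was 0.06 ± 0.06 (adjusted p = 0.366 by edgeR). Against the other 4 knockdowns mof was higher by 0.16 ± 0.05 (adjusted p = 0.00379), with adjusted p = 0.155 in the 1 alternative that lost this call. Sxl had 7.84, 6.541 and 7.95 CPM in Nito, against 8.65, 8.40 and 10.51 CPM in control. That difference was −0.30 ± 0.15 and missed the threshold (adjusted p = 0.0891). In Ime4_dMettl14 Sxl had 6.26, 5.29 and 6.96 CPM and was called lower by −0.57 ± 0.16 (adjusted p = 0.0334), a call lost under 5 alternatives with adjusted p of up to 0.153.

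The roX1 RNA was listed at 0 in 9 of 18 libraries and was not tested. Of the dosage compensation genes on other chromosomes, the helicase gene mle (0.12, adjusted p = 0.00614) and the kinase gene JIL-1 (0.48, adjusted p = 3.88e-13) rose in Nito by edgeR. JIL-1 was also called higher in Fl2d (0.19), Vir (0.19) and CG7358 (0.16). The values for msl-1 (−0.03), msl-2 (0.03), msl-3 (0.10), Clamp (0.06) and Unr (−0.00 ± 0.84) did not pass the test. The error of Unr is too large to show a lack of change.

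Genes of X-linked signalling pathways mostly shared the rise. In Nito 22 of 27 members of this list rose (81.5%) and 3 fell (11.1%), with a median log2 fold change of 0.33. All counts of lists in Nito are to be read against 29.8% risen and 30.9% fallen over all genes tested, with a median of 0.00. They are also to be read against 47.4% and 19.3% over the X members, with a median of 0.14. Lists were not matched to X members of like level or length, and the part of either in the list counts was not tested. The kinase gene mnb, of the DYRK family, had 129, 131 and 128 CPM in Nito, against 72.6, 76.3 and 78.3 CPM in control (0.77 ± 0.05). The polarity gene par-6 had 227, 242 and 242 CPM in Nito, against 159.7, 168 and 169 CPM in control (0.52 ± 0.03). The small GTPase gene Cdc42 had 833, 840.0 and 848 CPM in Nito, against 645, 663 and 665 CPM in control (0.35 ± 0.03). Nito and control libraries did not overlap for any of these 3 genes.

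The fallen signalling genes were flw, N and RhoGAP19D, while Raf (0.07, adjusted p = 0.151 by edgeR) and Rala (0.14, adjusted p = 0.0842) were not called. The phosphatase gene flw, which encodes a catalytic subunit of protein phosphatase 1, had 207, 202 and 203 CPM in Nito, against 357, 366 and 370.3 CPM in control. It fell by 0.84 ± 0.03 (SE, adjusted p = 5.13e-22 by edgeR), and its fitted change in the other knockdowns was 0.07 to 0.09. The receptor gene N (Notch) averaged 140.2 CPM in Nito and 185 CPM in control (−0.40 ± 0.04). In the other knockdowns, risen and fallen signalling genes numbered 9 and 7 in Fl2d, 7 and 7 in Vir, and 13 and 4 in CG7358, and with total-count scaling 7 and 7, 6 and 8, and 11 and 6. In Ime4_dMettl14 3 rose and 0 fell by edgeR, with 0 fallen at an unadjusted p under 0.05 and 0 by DESeq2.

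X-linked genes for chromatin proteins and transcription factors had 19 of 31 risen and 3 fallen in Nito (median 0.27). These are 61.3% and 9.68%, where 47.4% and 19.3% of X members and 29.8% and 30.9% of all genes rose and fell. The zinc-finger gene hang had 442, 446 and 450.2 CPM in Nito, against 292, 286 and 277 CPM in control (0.65 ± 0.04, adjusted p = 1.59e-15). The histone methyltransferase gene trr had 302, 307 and 302 CPM in Nito, against 232, 223 and 221 CPM in control (0.43 ± 0.03). Set2, for a methyltransferase of histone H3, had 74.5, 79.4 and 82.5 CPM in Nito, against 57.2, 55.1 and 52.9 CPM in control (0.52 ± 0.05). The corepressor gene Smr rose by 1.04 ± 0.22 (adjusted p = 0.00123), with a larger error than these genes, and shares exon sequence with lncRNA:CR43963 on the same strand. The fallen members were the bromodomain gene fs(1)h (−0.53 ± 0.12), HP1b (−0.10) and Kmn1 (−0.25). Risen and fallen members numbered 6 and 6 in Fl2d, 6 and 4 in Vir, and 6 and 7 in CG7358. With total-count scaling these were 4 and 10, 3 and 8, and 4 and 11. In Ime4_dMettl14 1 rose and 0 fell by edgeR, with 5 lower at an unadjusted p under 0.05 and 0 by DESeq2.

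Of 14 X-linked genes listed for RNA processing, 10 rose and 1 fell in Nito (median 0.34). The risen share was 71.4%, where 47.4% of X members and 29.8% of all genes rose. U2af50, the large subunit of the splicing factor U2AF, had 282, 289 and 284 CPM in Nito, against 203, 202 and 207 CPM in control (0.48 ± 0.03). The exoribonuclease gene pcm had 163, 169 and 163 CPM in Nito, against 114.9, 119 and 119 CPM in control (0.49 ± 0.04). The mRNA export receptor gene sbr had 146, 150.2 and 145 CPM in Nito, against 119.9, 117 and 113 CPM in control (0.34 ± 0.03). All 3 genes were separated between the groups. One risen member of the list, peb (0.93), encodes a transcription factor. Elsewhere the risen and fallen members were 2 and 3 in Fl2d, 2 and 2 in Vir, and 1 and 5 in CG7358, and with total-count scaling 1 and 4, 1 and 3, and 1 and 7. In Ime4_dMettl14 1 fell and 0 rose by edgeR, with 0 higher at an unadjusted p under 0.05 and 0 by DESeq2.

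Flacc itself is an X member of that list. It had 12.4, 11.3 and 13.4 CPM in CG7358, the group treated against it, and 43.8, 42.3 and 39.4 CPM in control (−1.76 ± 0.14, adjusted p = 2.92e-07 by edgeR). In Nito it had 49.2, 59.0 and 51.0 CPM (0.34 ± 0.11, adjusted p = 0.0167). That call in Nito was lost under 2 alternatives, with adjusted p of up to 0.0752.

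X-linked cell cycle, replication and death genes rose in 18 of 28 cases and fell in 1 in Nito (median 0.26). The risen share was 64.3%, compared with 47.4% of X members and 29.8% of all genes. The replication checkpoint gene mus101 had 68.2, 74.7 and 67.1 CPM in Nito, against 48.0, 46.2 and 43.4 CPM in control (0.61 ± 0.05). The cyclin gene CycD had 109, 105 and 113 CPM in Nito, against 74.6, 73.9 and 79.1 CPM in control (0.52 ± 0.04). The nucleoporin gene Nup153 had 349, 351 and 354 CPM in Nito, against 254, 252 and 254 CPM in control (0.47 ± 0.03). The member that fell was Cdk7 (−0.21). Counts of risen and fallen members were 2 and 2 in Ime4_dMettl14, 5 and 8 in Fl2d, 5 and 3 in Vir, and 7 and 8 in CG7358. With total-count scaling the split was 2 and 13 in Fl2d, 5 and 11 in Vir, and 3 and 12 in CG7358.

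Genes listed for cytoskeleton, adhesion and matrix had 18 of 34 risen and 10 fallen in Nito (median 0.11). Their risen share of 52.9% was near the 47.4% of X members, and their fallen share of 29.4% near the 30.9% of all genes, where 19.3% of X members fell. The list also holds genes of other functions, among them Nup93-1 and Crag, which rose, and mgl and cin, which fell. The integrin subunit gene mew, for αPS1, had 60.7, 58.2 and 62.0 CPM in Nito, against 123, 125 and 121 CPM in control (−1.03 ± 0.04). The gene if, for αPS2, had 15.67, 15.70 and 16.1 CPM in Nito, against 29.8, 31.4 and 35.5 CPM in control (−1.02 ± 0.08). The beta subunit gene mys was not called (−0.06, adjusted p = 0.109 by edgeR).

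The decrease of if was not limited to Nito, with −1.07 ± 0.08 in Fl2d, −0.96 ± 0.08 in Vir and −1.13 ± 0.08 in CG7358. The annexin gene AnxB11 had 119, 118 and 117 CPM in Nito, against 249, 262 and 254 CPM in control (−1.11 ± 0.03). Other fallen members were the flotillin gene Flo2 (−0.80), fog (−0.62), spri (−0.35), mgl (−0.38), cin, flw and the actin gene Act5C (−0.17). The other knockdowns had 1 risen and 4 fallen in Ime4_dMettl14, 8 and 9 in Fl2d, 4 and 9 in Vir, and 10 and 9 in CG7358. With total-count scaling the last 3 pairs were 4 and 13, 3 and 14, and 6 and 12. Some genes, such as flw and par-6, stand in more than 1 list. Exons of mew, Pfrx and RpS6 overlap another gene on their own strand, and those of AnxB11, Abca3, CG12576, Cht6, mnb, Cdc42, trr, Larp7, Fpgs1 and f overlap a gene on the opposite strand, which leaves their counts uncertain.

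Of metabolism and transport genes 9 of 26 rose and 5 fell in Nito (median 0.09). The risen share of 34.6% lay between the 29.8% of all genes and the 47.4% of X members, and the fallen share of 19.2% was near the 19.3% of X members. With scaling from genes of the 3 arms these counts were 13 and 4. Pfrx, for a bifunctional enzyme that sets the level of fructose 2,6-bisphosphate, had 71.4, 73.5 and 70.9 CPM in Nito, against 38.8, 42.2 and 45.2 CPM in control (0.78 ± 0.06). The ethanolamine kinase gene eas had 100.4, 94.1 and 104 CPM in Nito, against 159, 157 and 157 CPM in control (−0.66 ± 0.04). The clathrin adaptor gene AP-1gamma had 108, 110.0 and 113 CPM in Nito, against 157, 172 and 162 CPM in control (−0.57 ± 0.04).

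AP-1gamma moved the other way in 3 other knockdowns, with 0.19 ± 0.04 in Fl2d, 0.23 ± 0.04 in Vir and 0.23 ± 0.04 in CG7358, and Nito differed from the mean of the other 4 by −0.76 ± 0.03 (adjusted p = 9.6e-20 by edgeR). Over the metabolism and transport list, 5 rose and 8 fell in Fl2d, 3 and 7 in Vir, and 6 and 6 in CG7358, and with total-count scaling 3 and 11, 3 and 10, and 5 and 9. In Ime4_dMettl14 1 rose and 0 fell by edgeR, with 0 lower at an unadjusted p under 0.05 and 0 by DESeq2.

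Most X-linked genes of cytosolic ribosomal proteins with RpL or RpS symbols rose in 4 knockdowns. This list was taken by symbol and leaves out sta, a small-subunit ribosomal protein gene that was not called in Nito. In Nito 10 of 13 rose and 1 fell (median 0.18), in Fl2d 12 rose (median 0.22), in Vir 11 (median 0.20) and in CG7358 10 (median 0.15), with 0 fallen in these last 3 by edgeR, 0 lower at an unadjusted p under 0.05 and 0 by DESeq2. In Ime4_dMettl14 1 fell and 0 rose, with 0 higher at an unadjusted p under 0.05 and 0 by DESeq2. Over all genes tested 29.8% rose in Nito, 16% in Fl2d, 16.7% in Vir and 18.8% in CG7358, and over X members 47.4%, 14.1%, 14.7% and 16.9%. With total-count scaling the median stayed at 0.09 or more in all 4, and the risen members numbered 11 in Fl2d, 10 in Vir and 7 in CG7358. RpS6 had 1378, 1502 and 1408 CPM in Nito, against 1166, 1196 and 1211 CPM in control (0.26 ± 0.04). RpL37-1 had 2485, 2693 and 2571 CPM in Nito, against 2085, 2202 and 2282 CPM in control (0.24 ± 0.03). Against the mean of the other 4 knockdowns 2 of the 13 were higher in Nito and 2 lower, with a median of 0.04. That count of higher members depended on the scaling, at 6 with TMM from genes of the 3 arms and 7 with total counts, with 2 lower in both. RpL36 was the fallen member, at 818, 861 and 821 CPM in Nito, against 892, 891 and 933 CPM in control (−0.12 ± 0.03).

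The largest fold decreases in Nito among X members of at least 8 CPM on average separated the groups fully. CG15211 (FBgn0030234, X, 10772541 to 10778981, plus strand) had 8.20, 7.11 and 8.17 CPM in Nito, against 58.2, 61.1 and 63.2 CPM in control. It fell by 2.96 ± 0.07 (SE, adjusted p = 8.65e-26 by edgeR). Its neighbour Ant2 (FBgn0025111, X, 10778954 to 10786907, minus strand) had 5.04, 5.01 and 4.33 CPM in Nito, against 21.2, 23.1 and 23.4 CPM in control (−2.24 ± 0.08). Ant2 encodes an ADP/ATP translocase of the mitochondrial inner membrane and shares exon sequence with its paralogue sesB, which had a fitted change of 0.01. Exons of CG15211 and Ant2 overlap on opposite strands. Whether reads were counted by strand is not given in the sources used here, so the counts of both are uncertain.

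A second pair of neighbours moved in opposite directions. LPCAT (FBgn0052699, X, 9571537 to 9579987, minus strand), for an acyltransferase of phospholipid remodelling, had 332, 326 and 336 CPM in Nito, against 858, 828 and 806 CPM in control (−1.33 ± 0.03, adjusted p = 4.92e-26). CG42395 (FBgn0259741, X, 9575126 to 9576247, minus strand) lies within the span of LPCAT. It had 40.1, 37.4 and 37.5 CPM in Nito, against 6.59, 7.26 and 7.25 CPM in control (2.44 ± 0.09, adjusted p = 6.28e-21). The annotated exons of these genes do not overlap.

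Next to LPCAT lies Cubn (FBgn0052702, X, 9558665 to 9571308, minus strand), the homologue of the endocytic receptor cubilin. It had 23.8, 19.9 and 23.7 CPM in Nito, against 136, 108 and 99.3 CPM in control (−2.35 ± 0.13). The membrane fusion gene Syx4 (FBgn0024980) had 8.02, 8.59 and 8.99 CPM in Nito, against 38.2, 37.8 and 39.7 CPM in control (−2.17 ± 0.07). Abca3 (FBgn0031170), of the ABC transporter family, had 91.8, 81.6 and 87.3 CPM in Nito, against 300.2, 287 and 288 CPM in control (−1.75 ± 0.04). The next decreases among members of at least 8 CPM on average were those of CG12576 (−1.70), CG11378 (−1.47), the chitinase gene Cht6 (−1.37) and CARPB (−1.28). Of these, CG11378 also fell in Fl2d (−1.05 ± 0.08) and Vir (−1.15 ± 0.08).

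Several of the most abundant X members were among those that fell. Act5C, a cytoplasmic actin gene, had 3450.1, 3459 and 3322 CPM in Nito, against 3855, 3834 and 3802 CPM in control (−0.17 ± 0.03, adjusted p = 1.09e-05 by edgeR). The endoplasmic reticulum chaperone gene Grp170 had 829.6, 792 and 814 CPM in Nito, against 1090.0, 1074 and 1041 CPM in control (−0.40 ± 0.03). Grp170 rose in the other knockdowns, by 0.31 ± 0.03 in Ime4_dMettl14, 0.22 ± 0.03 in Fl2d, 0.21 ± 0.03 in Vir and 0.30 ± 0.03 in CG7358.

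A second chaperone gene, Hsc70-3, had 1877, 1772 and 1852 CPM in Nito, against 1984, 1959 and 1910.0 CPM in control. Its difference of −0.09 ± 0.03 (adjusted p = 0.0152) lost its call under 3 alternatives, with adjusted p of up to 0.1004. That of l(1)G0320, −0.08 ± 0.03, was lost under 4. Hsc70-3 rose by 0.24, 0.19, 0.27 and 0.25 in Ime4_dMettl14, Fl2d, Vir and CG7358, and Nito was below the mean of those 4 by −0.33 ± 0.03 (adjusted p = 9.66e-13).

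Among abundant members whose 95% interval in Nito lay within 0.2 of 0, sta, for a small-subunit ribosomal protein, had 1709, 1979.9 and 1762 CPM in Nito, against 1699.9, 1845 and 1841 CPM in control (0.02 ± 0.08, adjusted p = 0.874). RpS28b (0.07 ± 0.03) and RpL7A (0.09 ± 0.03) were called higher by edgeR, and those calls were lost under 8 and 3 alternatives. In all, 253 of 1288 members had an interval within these limits.

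The largest rise was that of CG15784 (FBgn0029766, X, 5429571 to 5432526, plus strand), in Nito and in each other knockdown. It had 4490.5, 4221 and 4382 CPM in Nito, against 271, 254.7 and 246 CPM in control (4.09 ± 0.10, adjusted p = 3e-13). The fold change was 1.05 ± 0.09 in Ime4_dMettl14, 2.68 ± 0.09 in Fl2d, 2.62 ± 0.09 in Vir and 2.35 ± 0.09 in CG7358 on the log2 scale. Nito lay above the mean of the other 4 knockdowns by 1.91 ± 0.06 (adjusted p = 4.31e-12). Without this gene the X median in Nito stayed at 0.14.

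Below CG15784 and CG42395, the largest rises in Nito were ranked among members of at least 8 CPM on average whose Nito and control libraries did not overlap. TfIIA-S-2, a variant small subunit of the transcription factor TFIIA, had 17.4, 16.95 and 16.4 CPM in Nito, against 5.33, 5.83 and 5.29 CPM in control (1.62 ± 0.09). CG17754 had 67.6, 71.8 and 69.7 CPM in Nito, against 29.6, 30.5 and 31.3 CPM in control (1.19 ± 0.05). The others of that ranking were lncRNA:CR43963 (1.98), mamo (1.09), the actin-bundling gene f (1.07), CG32812 (1.05), Smr (1.04) and CG12206 (0.97). Of these, lncRNA:CR43963 rose also in Fl2d (2.06 ± 0.17), Vir (1.59 ± 0.18) and CG7358 (2.07 ± 0.17).

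**Figure D5:**
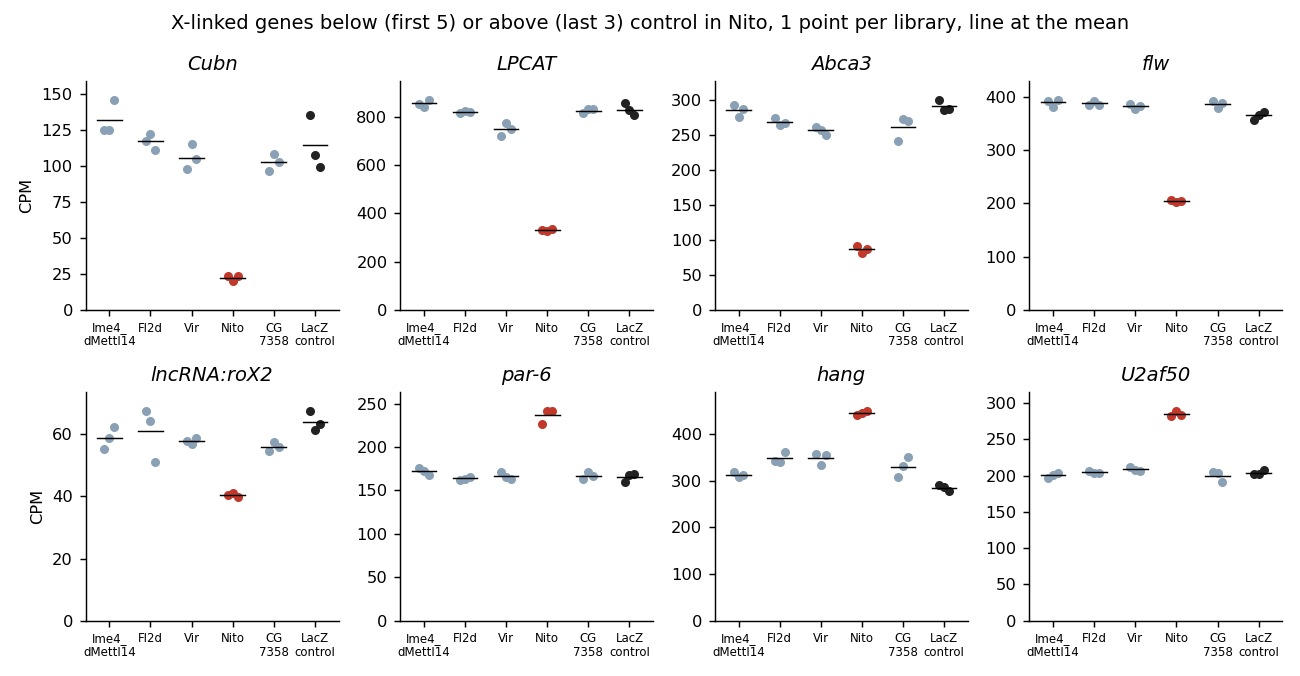
CPM of 8 X-linked genes in each library (points) of the 5 knockdowns and, at the right of each panel, the LacZ control, with a line at each group's mean. In Nito, Cubn, LPCAT, Abca3, flw and roX2 lie below all control libraries, and par-6, hang and U2af50 lie above them.

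Some members moved in opposite directions in Nito and in other knockdowns. AdamTS-B (FBgn0029791), for a secreted metalloprotease, had 24.2, 26.02 and 28.3 CPM in Fl2d, 20.7, 19.9 and 21.0 CPM in Vir, 5.47, 5.80 and 5.70 CPM in Nito, and 24.1, 23.2 and 23.7 CPM in CG7358, against 9.68, 12 and 12.4 CPM in control. It rose by 1.21 ± 0.08, 0.86 ± 0.09 and 1.06 ± 0.08 in Fl2d, Vir and CG7358 and fell in Nito (−0.9997 ± 0.11). The direct difference of Nito from the mean of the other 4 was −1.76 ± 0.08 (adjusted p = 4.14e-18 by edgeR).

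CG5254 (FBgn0040383) showed the reverse order. It had 6.86, 8.63 and 8.70 CPM in Fl2d, 6.80, 8.35 and 7.17 CPM in Vir, 22.8, 22.1 and 20.2 CPM in Nito, and 6.48, 6.83 and 6.40 CPM in CG7358, against 17.3, 16.3 and 16.3 CPM in control. It rose in Nito (0.38 ± 0.07) and fell in Fl2d (−1.04 ± 0.09), Vir (−1.16 ± 0.09) and CG7358 (−1.34 ± 0.09). Nito exceeded the mean of the other 4 knockdowns by 1.31 ± 0.06 (adjusted p = 4.78e-18). Exons of AdamTS-B and of CG5254 overlap an antisense gene.

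The largest separations from the other 4 knockdowns included genes of very low level. The TRP channel gene iav had 3.28, 2.96 and 3.67 CPM in Nito, against 0.573, 0.914 and 0.738 CPM in control, and exceeded the other 4 by 1.96 on the log2 scale. CG9360 had 0.668, 0.683 and 0.603 CPM in Nito, against 4.24, 5.49 and 4.18 CPM in control, and Fpgs1 had 1.40, 1.25 and 0.932 CPM in Nito, against 5.84, 5.66 and 5.96 CPM in control. Against the other 4 knockdowns they were lower by −2.61 ± 0.21 and −2.26 ± 0.15.

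In Ime4_dMettl14, with few called members, the lowest fold changes among called members of at least 8 CPM on average were those of Nt5b (−0.64 ± 0.05), CG15211 (−0.64) and pdgy (−0.52 ± 0.05). Nt5b had 54.9, 57.2 and 55.2 CPM in Ime4_dMettl14, against 85.0, 82.4 and 93.2 CPM in control. It was not called in Nito (0.05, adjusted p = 0.376 by edgeR). The gene pdgy fell in every knockdown, to −1.02 ± 0.05 in Nito, and shares exon sequence with a lncRNA on its strand and with Flo2 on the other. In Fl2d, Vir and CG7358 the lowest included CG34330 (−1.38 ± 0.24, −1.49 ± 0.24 and −1.31 ± 0.24), which had a value of −1.28 ± 0.23 in Nito.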

How the data were processed

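Polyadenylated RNA of S2R+ cells was sequenced from libraries of a directional kit, according to the labels. The values deposited are raw read counts for each FlyBase gene, with 1 file per library and no normalization. Alignment with STAR 2.5.1b, counting with featureCounts 1.5.1 and the build BDGP6 stand in the submitters' processing notes. How strand, multiply mapped reads and overlaps were treated, and which annotation release was used, is not given in the sources used here, so counts of overlapping genes and near-identical copies (such as RpS14a and RpS14b, or ph-p and ph-d) are uncertain. Chromosome, position and names were read from an Ensembl annotation whose assembly has the same name, and which held 17253 of 17559 IDs. The 306 others held 4.83% of counts and stayed in the tests.

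edgeR 4.0.16 in R 4.3.3 was used for the tests (filterByExpr, 8146 genes; TMM; robust quasi-likelihood fit of all 18 libraries, 1 coefficient per group). Benjamini-Hochberg adjustment ran over all genes tested in a contrast, with calls at adjusted p under 0.05. Fold changes are log2, ± SE. CPM use TMM library sizes. Per-library differences use log2 CPM with a prior count of 2. Intervals are the estimate ± 1.96 SE. Pairs of replicates differed by a chi-square per degree of freedom of 2.25 to 14.7, so none was merged. The test was first tried on simulated counts.

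Members and gene lists were chosen with earlier results of these data known. Lists are described by counts and medians, with no test. Named genes are the 10 highest and 10 lowest called members in Nito and the 3 highest and 3 lowest in each other knockdown (mean CPM of at least 8, no overlap of groups), the 6 most abundant that fell in Nito, the 4 most abundant with an interval within 0.2 of 0, up to 4 per list with the smallest p, X-linked dosage compensation genes, 2 each just inside and outside the minimum, and the 3 highest and 3 lowest against the other 4 knockdowns. Not all are given. Other list members were named after their values were seen. Alternatives were DESeq2 size factors, TMM from 2L, 3L and 3R genes, total counts, DESeq2 1.42.0, other filters, the replicate number as a block, only the groups compared, members of at least 5 CPM, members that overlap no gene, and each library left out.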

Additional observations from a re-analysis of the deposited data

How the results depend on the processing

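Same-numbered deviations had a median correlation of 0.00969 (−0.0865 to 0.17), and those of other numbers 0.00225 (−0.126 to 0.121). Of 45 same-numbered pairs 5 had a correlation over 0.1, and 9 of 18 libraries correlated best with their own number. The replicate numbers thus gave little sign of pairing, and a weak pairing of some libraries is not excluded. With the replicate number as a block 611 X members rose and 246 fell in Nito, and no count moved by over 1.5 times. The Nito distance between the medians of X and the arms was 0.16 to 0.17 over the alternatives other than leaving out a library, and kept its direction in each of them. DESeq2's test called 580 risen and 224 fallen members in Nito.

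Total-count scaling gave 389, 399 and 399 fallen members in Fl2d, Vir and CG7358, each over 1.5 times the count with TMM. It also lowered the medians over all genes tested in these groups, to −0.05, −0.05 and −0.06. Leaving out the members that overlap another gene keeps 817, and by that construction fallen counts were 18 in Ime4_dMettl14, 150 in Fl2d, 156 in Vir, 156 in Nito and 158 in CG7358. Against the other 4 knockdowns 425 were then higher in Nito and 158 lower. The largest distance between X and the arms over the classes of level was then 0.23, and 0.21 with 5 classes of equal size, against 0.19. Without CG15784, an alternative chosen after seeing the data, the mean X share was 15.8% in Nito, 14.6% in Fl2d and 14.4% in Vir.

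Leaving out single libraries gave 547 to 573 risen and 219 to 247 fallen members in Nito (distance 0.16 to 0.18), 132 to 164 and 206 to 270 in Fl2d (−0.04 to −0.01), 145 to 184 and 206 to 238 in Vir (−0.03 to −0.02), and 172 to 200 and 217 to 241 in CG7358 (−0.02 to −0.00). Against the other 4 knockdowns 600 to 651 were higher and 221 to 258 lower. The distance by class had lows of 0.11 to 0.14 and highs of 0.18 to 0.21. In Ime4_dMettl14 16 to 37 rose and 10 to 22 fell (distance −0.01 to 0.01). Its risen count of 43 became 20 and 27 without control replicates 1 and 2, and 16 and 26 without Ime4_dMettl14 replicates 1 and 2. Its fallen count of 29 became 12 without control replicate 2, and 15, 10 and 18 without Ime4_dMettl14 replicates 1, 2 and 3. Of the values of named genes over all contrasts, 3063 kept their direction and call status without a library, 111 lost the call and 21 gained one. Under the other settings 3284 kept them, 45 lost the call and 38 gained one, and no called value changed sign.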
